A study of Mus musculus with 11 samples.

Results

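The 10 genes described here mark hepatic stellate cells or carry signals of platelet-derived growth factor (PDGF) in the liver. They were chosen by name, with earlier results of these data known. All were found, and they are 10 of the 13669 genes counted in each liver. *Lrat*, *Reln*, *Colec11*, *Hgf* and *Ecm1* are markers of quiescent stellate cells, *Dcn* and *Sparc* encode proteins of the stromal matrix, and *Pdgfra*, *Pdgfrb* and *Pdgfc* encode the PDGF receptors and one of their ligands. The RNA came from whole livers of wild-type male C57BL/6J mice on chow, 5 of which had received the control virus (AAV-NC) and 6 the virus carrying the decoy (AAV-TuD). Both were recombinant adeno-associated viruses of serotype 8 injected into the tail vein, with the liver-specific LP1 promoter, which acts in hepatocytes. The decoy (TuD, tough decoy) is an RNA that binds both *miR-379* and *miR-541*, and the control vector carried a negative control sequence. The animals were killed after a short fast, and neither the age at killing nor the time since injection of each of them is given in the sources used here. The comparison asks which transcripts differ between livers with the decoy and livers with the control virus. The paper reports that the decoy also lowered *lncMGC* and *Mirg*, host transcripts of the cluster that holds *miR-379* and *miR-541*. It reports lower levels of other miRNAs of this cluster as well. The comparison is therefore of the decoy as a whole, not of *miR-379* and *miR-541* alone.

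Stellate cells lie between the sinusoidal endothelium and the hepatocytes and store vitamin A as retinyl esters. When the liver is injured they lose these stores, multiply and lay down extracellular matrix as myofibroblasts. PDGF is a major signal for their growth and migration, and acts through 2 receptor tyrosine kinases, PDGFRα and PDGFRβ, which dimerise when a ligand binds. Of the ligands, PDGF-A and PDGF-C bind PDGFRα, PDGF-B binds both receptors and PDGF-D binds mainly PDGFRβ. PDGF-C and PDGF-D are secreted in a latent form from which a protease must remove a CUB domain.

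The mature sequences of the miRNAs held by the decoy are shown because its binding sites were designed for them. They are from RefSeq on GRCm38.p6, with the seed (bases 2 to 8) in capitals. The first lies at chr12:109709065-109709085 and the second at chr12:109742422-109742446, both on the plus strand.
mmu-miR-379-5p: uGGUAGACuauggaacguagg
mmu-miR-541-5p: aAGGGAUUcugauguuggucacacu
The match to the first seed is GTCTACC and to the second AATCCCT. Among the 10 genes, whose longest annotated 3′ UTRs ran between 93 bases (*Ecm1*) and 4394 bases (*Lrat*), 0 held either match there. Of 10928 tested genes with an annotated 3′ UTR, 5.20% held the first and 8.95% the second. A missing match says only that these letters are not in the annotated stretch. The search covers these 2 seeds only. Seeds of the other miRNAs of the cluster that the paper reports as lowered by the decoy were not searched. The miRNAs themselves were not analysed here.

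On GRCm38 the genes lie on 6 chromosomes. *Lrat* (chr3:82892579-82903973), *Ecm1* (chr3:95734147-95739569) and *Pdgfc* (chr3:81036416-81214040) share chromosome 3. *Reln* (chr5:21884454-22344702), *Hgf* (chr5:16553495-16620152) and *Pdgfra* (chr5:75152292-75198215) share chromosome 5. *Dcn* is at chr10:97479609-97518143, *Sparc* at chr11:55394500-55423183, *Colec11* at chr12:28594173-28623377 and *Pdgfrb* at chr18:61045150-61085061. All 10 are protein-coding.

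Between 8148531 and 12043959 reads were counted per liver. Genes of the major urinary proteins (*Mup*) took 38.6% of the reads of the AAV-NC liver with replicate number 7 (AAV-NC 7), 30.9% in AAV-TuD 3 and 28.4% in AAV-TuD 5, and between 8.09% and 18.7% in the other 8 livers. Levels are therefore given as CPM, a gene’s count relative to a library size scaled by the TMM method, whose factors were between 0.667 and 1.24. Without this scaling the median over all genes was a log2 fold change of 0.23 instead of -0.002, and 95.1% instead of 62.6% of the genes called were higher with AAV-TuD.

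Of the 10 genes, 9 were called higher in AAV-TuD than in AAV-NC livers, and 0 lower, by edgeR (quasi-likelihood test, adjusted p value below 0.05). Among the 13334 genes tested, 11.6% were called, 7.24% higher and 4.33% lower. In 7 of the 10 every AAV-TuD liver was above every AAV-NC liver, which held for 4.11% of all genes tested, and the reverse order, seen in 3.28%, was found in 0 of the 10. The median log2 fold change of the 10 was 0.84. Because the 10 genes were chosen with earlier results of these data known, these counts describe the genes and do not test them as a set. In *Pdgfc* no AAV-NC liver, and in *Pdgfrb* only 3 of them, had more than 10 reads, so that both entered the test through their reads in AAV-TuD livers, while the other 8 genes were over 10 reads in all 11 livers. Of the 7 genes averaging 50 reads or more, 6 were called higher (6.25% of all genes at this depth), and of the 3 below it 3 were (8.93% of all such genes). More stellate cells, more of these transcripts in each stellate cell and transcripts from other cells that make them cannot be told apart in RNA of whole liver.

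**Figure D1:**
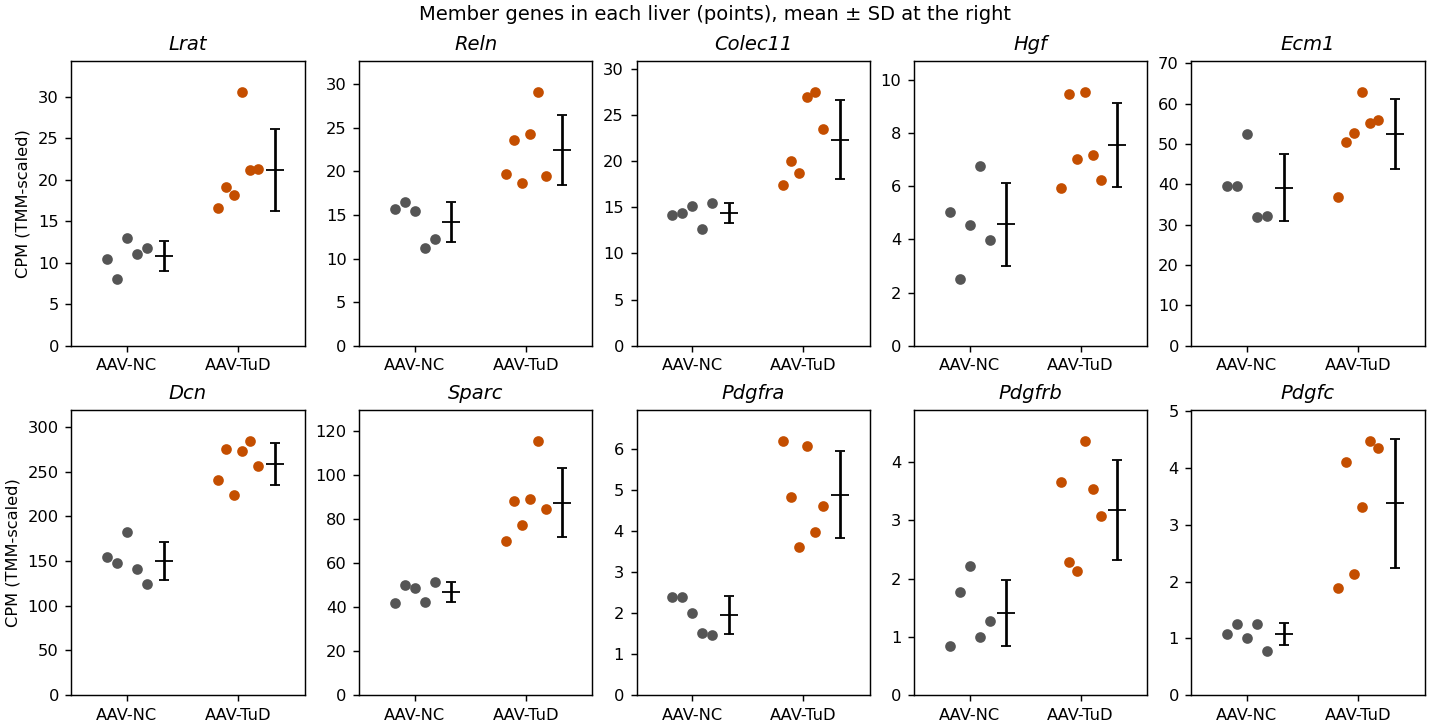
Level of each of the 10 genes, in CPM of TMM-scaled libraries from 0, in each of 5 AAV-NC livers (grey) and 6 AAV-TuD livers (orange). Points are livers in the order of their replicate numbers and the bar at the right of each group is the mean ± SD. The groups are apart in 7 panels and overlap in *Hgf*, *Ecm1* and *Pdgfrb*.

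Lecithin retinol acyltransferase (*Lrat*) makes the retinyl esters that stellate cells store, and is the marker most closely tied to that function. It was at 8.06, 10.5, 11.02, 11.8 and 12.9 CPM in the AAV-NC livers, and between 16.6 and 30.6 CPM (median 20.2) in the AAV-TuD livers. The groups did not overlap. The mean rose from 10.9 ± 1.82 (SD, n = 5) to 21.2 ± 4.96 CPM (SD, n = 6), a log2 fold change of 0.96 (SE 0.156, adjusted p = 0.0016 in edgeR). AAV-TuD 9 stood above the rest of its group, and without it the log2 fold change was 0.83.

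Reelin (*Reln*), a large secreted glycoprotein best known from the developing brain, is made in the liver by stellate cells. Its levels were 11.3, 12.3, 15.5, 15.6 and 16.5 CPM with AAV-NC and between 18.7 and 29.1 CPM (median 21.7) with AAV-TuD. Again no AAV-TuD liver reached down into the control range, and the log2 fold change was 0.66 (SE 0.135, adjusted p = 0.00595).

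Collectin 11 (*Colec11*) is a soluble lectin that binds sugars on microbes and starts the lectin pathway of complement. The AAV-NC livers held 12.6, 14.2, 14.4, 15.2 and 15.5 CPM, a spread of 1.10 CPM (SD, n = 5), and the AAV-TuD livers between 17.4 and 27.5 CPM (median 21.7). The groups were apart, with a log2 fold change of 0.64 (SE 0.127, adjusted p = 0.00537).

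Hepatocyte growth factor (*Hgf*) is secreted by stellate cells and stimulates hepatocytes through the receptor MET. It was at 2.52, 3.99, 4.54, 5.01 and 6.76 CPM with AAV-NC, and between 5.92 and 9.55 CPM (median 7.08) with AAV-TuD. Of the AAV-TuD livers, 4 of 6 were above all controls, while AAV-TuD 3 and 11 were below AAV-NC 7. The log2 fold change was 0.73 (SE 0.208, adjusted p = 0.0328), and the call was near the threshold and not stable to the loss of 1 liver. With 1 liver left out it was lost in 7 of 11 fits (AAV-NC 1, 2, 6 or 8, or AAV-TuD 4, 9 or 10), with adjusted p values up to 0.0794 in edgeR.

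Extracellular matrix protein 1 (*Ecm1*), a secreted glycoprotein, is also made by hepatocytes. Its levels were 32.0, 32.2, 39.5, 39.5 and 52.5 CPM with AAV-NC and between 37.0 and 63.0 CPM (median 54.0) with AAV-TuD. The groups overlapped at AAV-NC 6, the highest control, and AAV-TuD 3, the lowest liver with the decoy. The log2 fold change of 0.42 (95% interval 0.13 to 0.72) did not pass the test (adjusted p = 0.0608 in edgeR). It passed with AAV-TuD 3 left out (0.51, adjusted p = 0.0127), with AAV-NC 6 left out (0.55, adjusted p = 0.0172) and with DESeq2 (0.42, adjusted p = 0.0421).

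Decorin (*Dcn*), a small proteoglycan that binds collagen fibrils and TGF-β, had the smallest p value of the 10 genes. It was at 124, 141, 148, 155 and 183 CPM in AAV-NC and between 224 and 285 CPM (median 265) in AAV-TuD livers. Every liver with the decoy was above the highest control. The mean was 150 ± 21.7 CPM (SD, n = 5) against 259 ± 23.4 CPM (SD, n = 6), a log2 fold change of 0.79 (SE 0.0961, adjusted p = 2.31e-04).

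*Sparc* encodes osteonectin, a matrix glycoprotein that binds collagen and calcium and is also made by endothelial cells. Its levels were 41.8, 42.2, 48.6, 49.97 and 51.6 CPM with AAV-NC and between 70.1 and 116 CPM (median 86.4) with AAV-TuD. The groups were apart, and the log2 fold change was 0.90 (SE 0.113, adjusted p = 2.52e-04).

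*Pdgfc* encodes the latent ligand PDGF-C. It had 8 to 10 reads in each AAV-NC liver, or 0.779, 0.996, 1.07, 1.25 and 1.26 CPM, and 20 to 52 reads in the AAV-TuD livers, or between 1.88 and 4.48 CPM (median 3.71). The AAV-TuD livers fell into a lower pair, 3 and 5, at 1.88 and 2.12 CPM, and 4 livers from 3.32 CPM upwards, all above the controls. The log2 fold change was 1.67 (SE 0.284, adjusted p = 0.00223), 3.18-fold and the highest among the 10 genes.

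*Pdgfra* encodes the receptor that PDGF-C binds, and in the liver it is carried by stellate cells and other fibroblasts. It was at 1.46, 1.502, 1.99, 2.39 and 2.39 CPM with AAV-NC and between 3.61 and 6.198 CPM (median 4.72) with AAV-TuD. No liver of the groups overlapped, and the log2 fold change was 1.33 (SE 0.209, adjusted p = 0.0013), or 2.52-fold.

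*Pdgfrb* encodes the receptor of PDGF-B and PDGF-D, and marks stellate cells and pericytes. Its 7 to 20 reads per AAV-NC liver came to 0.836, 1.001, 1.27, 1.76 and 2.21 CPM, and its 20 to 54 reads per AAV-TuD liver to between 2.12 and 4.37 CPM (median 3.31). Only AAV-TuD 5 was below a control, AAV-NC 6. The log2 fold change was 1.16 (SE 0.274, adjusted p = 0.0129).

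**Figure D2:**
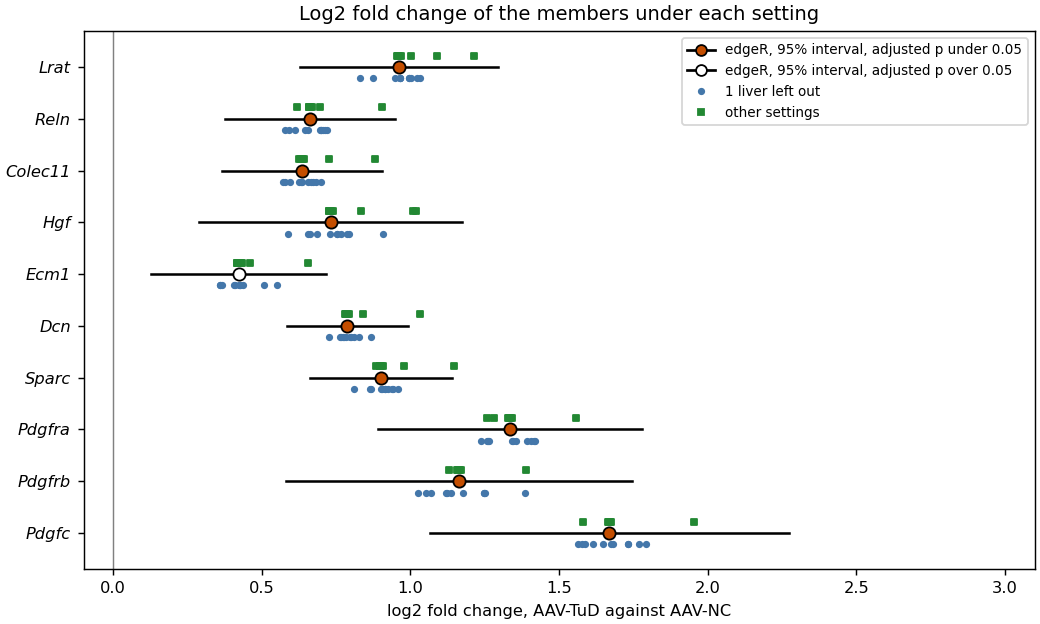
Log2 fold change of AAV-TuD against AAV-NC livers (horizontal axis) for the 10 genes. Large circles with lines are edgeR's estimate and its 95% interval, filled where the adjusted p value was under 0.05. Small circles are the fits with 1 liver left out and squares the other settings. All values are above 0, and only *Ecm1* is open.

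The fold changes of the PDGF genes, between 2.24 and 3.18, were above those of the other 7 genes, between 1.34 and 1.95. However, *Pdgfc* and *Pdgfrb* entered the test through their reads in AAV-TuD livers. The PDGF genes also averaged only 25 to 37.5 reads per liver, against 64.1 or more for the other 7. Ratios within a liver, which do not depend on the scaling, were used to ask whether pairs of genes changed unequally. The log2 ratio of *Pdgfra* to *Pdgfrb* reads was between -0.15 and 1.45 in AAV-NC and between 0.16 and 1.07 in AAV-TuD livers, a difference of 0.13 (two-sided exact permutation test over 462 splits, p = 0.654). That of *Pdgfc* to *Pdgfra* was between -1.11 and -0.25 with AAV-NC and between -1.70 and 0.18 with AAV-TuD, a difference of 0.24 (exact p = 0.457). For *Lrat* to *Dcn* the difference was 0.15 (exact p = 0.381). The adjusted p value was 0.654 for each of the 3 ratios, so that unequal change was not detectable beyond the spread of these ratios, which does not show that the genes changed alike. A direct test of the PDGF genes against the others was not made.

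Within the AAV-TuD group the same livers were at the ends for most genes. AAV-TuD 10 was the highest of its group in 5 of the 10 genes, AAV-TuD 9 in 4 and AAV-TuD 3 in 1 (*Pdgfra*), while AAV-TuD 3 was the lowest in 6 and AAV-TuD 5 in the other 4. AAV-TuD 3 and 5 were the livers of this group with the largest *Mup* shares. When these and AAV-NC 7, the 3 livers with more than 25% of reads on *Mup* genes, were left out together, 9 genes were tested and 9 were called higher. *Ecm1* was then among them (log2 fold change 0.46, adjusted p = 0.0413 in edgeR) and *Hgf* was at 1.01 (adjusted p = 0.0109), while *Pdgfc* no longer had more than 10 reads in 5 livers and was not tested. The part of the *Mup* share in the spread among the AAV-TuD livers was not tested.

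Other markers of stellate cells were higher in part. Of 23 tested, 8 were called higher (34.8%, beside 7.24% of all genes) and 0 lower, with a median log2 fold change of 0.57. Cytoglobin (*Cygb*), a haem protein of quiescent stellate cells, was between 8.39 and 11.7 CPM with AAV-NC and between 16.3 and 28.5 CPM with AAV-TuD, a log2 fold change of 1.11 (adjusted p = 4.47e-04). *Adamtsl2*, a secreted protein that binds fibrillin microfibrils, changed by 1.84, the proteoglycan *Prelp* by 0.74 and *Abcc9*, a subunit of potassium channels, by 0.57. The groups did not overlap in 5 of the 23 genes, these 4 among them, where 4.11% of all genes were apart and higher. They overlapped in the other 3 of the 8 called. *Adamtsl2* entered the test through its reads in AAV-TuD livers. Desmin (*Des*) did not pass (0.74, adjusted p = 0.137), nor did *Rgs5* (0.59, adjusted p = 0.0534) or the chemokine *Cxcl12* (-0.18, adjusted p = 0.175), and *Gfap* was not analysed here. The summed level of the 23 genes was between 276 and 311 CPM with AAV-NC and between 332 and 406 CPM with AAV-TuD. *Cxcl12* takes the largest share of this sum, with means of 148 CPM with AAV-NC and 131 CPM with AAV-TuD.

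Retinoid genes were followed because *Lrat* belongs to them. Of 21 tested, 5 were called higher (23.8%, beside 7.24% of all genes) and 0 lower, with a median of 0.23. *Rdh10*, which oxidises retinol to retinal, rose from between 6.09 and 8.27 CPM to between 11.7 and 17.95 CPM (log2 fold change 1.02, adjusted p = 2.52e-04). The retinoic acid receptors *Rarg* (0.61) and *Rara* (0.52, adjusted p = 0.0374) were also among them, beside *Lrat*. The esterifying enzyme *Dgat1* was at -0.20 (adjusted p = 0.352).

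Genes of activated stellate cells and myofibroblasts were called higher in 11 of 15 tested (73.3%, beside 7.24% of all genes) and lower in 0. The median of the 15 was 1.07. A further 10 of the 25 genes listed were not analysed here, among them the defining myofibroblast genes *Acta2*, *Tagln*, *Timp1* and *Lox*. Of the 11 called, 6 entered the test through their reads in AAV-TuD livers. The collagen-binding proteoglycan *Lum* changed by 1.42, the actin-binding tropomyosin *Tpm1* by 0.70, the collagen cross-linking enzyme *Loxl2* by 1.07 and the gelatinase *Mmp2* by 2.48, and in all 4 the groups did not overlap. *Mmp2* was at or below 0.626 CPM in AAV-NC livers. *Postn* did not pass (0.42, adjusted p = 0.395), nor did fibronectin (*Fn1*), which takes most of the reads of this list and is also secreted by hepatocytes (-0.21, adjusted p = 0.138). The summed level of the 15 genes was between 324 and 394.5 CPM with AAV-NC and between 299 and 407 CPM with AAV-TuD, a ratio of means of 1.02, with 2 of 6 AAV-TuD livers above all controls. Portal fibroblast and mesothelial markers were called higher in 3 of 8 tested of 22 listed (37.5%, beside 7.24% of all genes), namely *Mgp*, *Eln* and *Dpt*. Of these, *Mgp* and *Eln* entered the test through AAV-TuD livers. Smooth muscle markers were called higher in 1 of 5 (20%), *Smtn* (0.60, adjusted p = 0.0479).

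**Figure D3:**
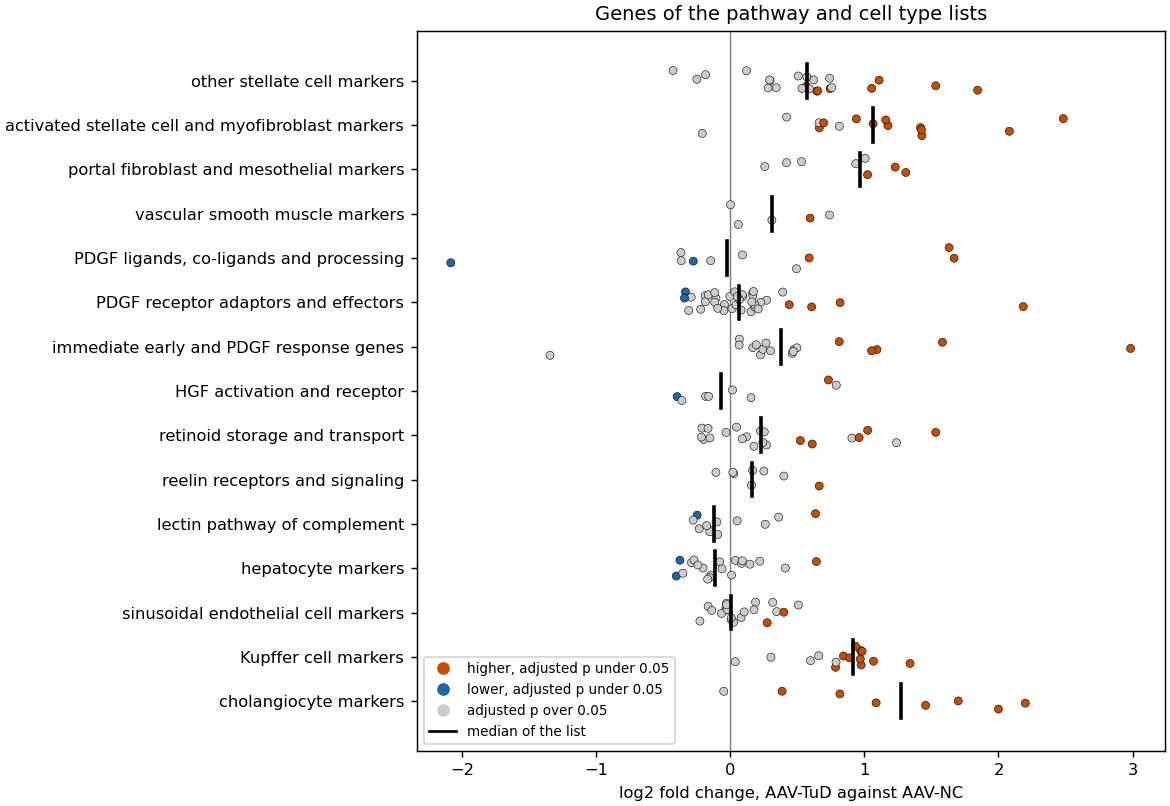
Log2 fold change (horizontal axis) of every tested gene of each pathway and cell type list, 1 point per gene, with the median of the list as a black bar. Orange points were called higher and blue points lower in AAV-TuD livers. Stellate, myofibroblast, Kupffer cell and cholangiocyte genes lie mostly above 0, and hepatocyte, endothelial and PDGF effector genes around it.

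PDGF ligands and the proteins that bind or process them went both ways. Of 10 tested, 3 were called higher (30%, beside 7.24% of all genes) and 2 lower (20%, beside 4.33%), with a median of -0.03. The 3 include *Pdgfc*, itself among the 10 genes described here, and 2 of them, *Pdgfc* and *Pdgfd*, entered the test through their reads in AAV-TuD livers. Beside *Pdgfc*, the ligand *Pdgfa* rose from between 9.05 and 12.6 CPM to between 13.4 and 22.8 CPM, with no overlap (log2 fold change 0.59, adjusted p = 0.0201). *Pdgfd* was called at 1.63 (adjusted p = 0.0318), at a mean of 9.09 reads per liver and with no AAV-NC liver over 10 reads. The PDGFRβ ligand *Pdgfb* was at 0.49 (adjusted p = 0.318) on a mean of 12.6 reads. *Pdgfrl*, which encodes a protein like the outer part of a PDGF receptor without a kinase, was lower (log2 fold change -2.08, adjusted p = 0.0116). Its AAV-NC livers spread from 1.11 to 10.8 CPM and its AAV-TuD livers from 0.531 to 1.81 CPM, with overlap. Furin (*Furin*), a protease that cleaves the PDGF-A and PDGF-B precursors, was lower with the groups apart (-0.28, adjusted p = 0.0305).

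Adaptors and effectors downstream of the receptors were mostly not called. Of 39 tested, 4 were higher (10.3%, beside 7.24% of all genes) and 2 lower (5.13%, beside 4.33%), with a median log2 fold change of 0.07. Among the higher genes, the kinase *Src* changed by 2.18 on the log2 scale (adjusted p = 0.00113) from at most 0.443 CPM in any control, with no AAV-NC liver over 10 reads, and the docking protein *Gab2* by 0.82. The phosphatase *Acp1* (-0.33) and the exchange factor *Sos1* (-0.34) were lower. The central components *Grb2* (0.01), *Plcg1* (0.04) and *Pik3ca* (-0.05) did not pass, with adjusted p values from 0.812 to 0.936.

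Transcripts that growth factors induce were called higher in 5 of 18 tested (27.8%, beside 7.24% of all genes) and lower in 0, with a median of 0.38. Cyclin D1 (*Ccnd1*), which drives entry into the cell cycle, rose from between 8.52 and 16.3 CPM to between 21.6 and 56.3 CPM (1.58, adjusted p = 0.00133). The transcription factors *Klf6* (1.09) and *Jun* (0.81) were also apart between the groups. *Egr1* was at 2.99 (adjusted p = 0.0229), with AAV-TuD livers from 2.16 to 45.5 CPM, and *Spry1* at 1.05 (adjusted p = 0.0472). These last genes, *Egr1* and *Spry1*, entered the test through AAV-TuD livers, with 2 AAV-NC livers over 10 reads in each. *Myc* did not pass (-1.34, adjusted p = 0.0762).

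Partners of the other marker genes were mostly not called. In the HGF system 1 of 8 was higher (*Hgf* itself) and 1 lower, each 12.5%, beside 7.24% and 4.33% of all genes. The lower gene was the HGF activator protease *Hgfac*, from between 90.8 and 112 CPM to between 69.1 and 88.5 CPM (log2 fold change -0.40, adjusted p = 0.00634). The receptor *Met* was at -0.36 (adjusted p = 0.0531). Of 8 reelin receptors and signalling genes tested, *Reln* alone was called (12.5%, beside 7.24% of all genes). Its receptor *Vldlr* was at 0.02 (adjusted p = 0.984). In the lectin pathway *Colec11* was called higher and its protease partner *Masp1* lower (-0.25, adjusted p = 0.0249) among 12 tested. Each was 8.33% of the 12, beside 7.24% of all genes higher and 4.33% lower. *Colec10*, which forms heteromers with collectin 11, was at 0.36 (adjusted p = 0.0834).

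Markers of some other cell types were also called higher with AAV-TuD. Of 16 Kupffer cell (liver macrophage) markers tested, 11 were called higher (68.8%, beside 7.24% of all genes) and 0 lower. Among the 11 were *Mpeg1*, *Ctss*, *Vsig4* and *Lyz2*. The summed level of the 16 was between 227 and 314 CPM with AAV-NC and between 266 and 644 CPM with AAV-TuD. Of 8 cholangiocyte (bile duct cell) markers tested of 13 listed, 7 were higher (87.5%), among them *Spp1*, *Bicc1*, *Epcam* and *Sox9*. The sums of the 8 were between 96.0 and 139 CPM with AAV-NC and between 169 and 219 CPM with AAV-TuD. *Epcam* and *Krt19* among these 7, and *Cd68* among the Kupffer cell markers, entered the test through AAV-TuD livers. Of 21 sinusoidal endothelial markers 2 were called (*Eng* at 0.40 and *Maf* at 0.28), or 9.52% beside 7.24% of all genes, with a median of 0.01 and sums between 499.5 and 563 CPM and between 536 and 586 CPM. Of 20 hepatocyte markers, *Cyp3a11* was higher (5%) and *Apob* and *Hnf4a* were lower (10%, beside 4.33% of all genes), with a median of -0.11. The sums of the 20 were between 56324 and 62548 CPM with AAV-NC and between 61629 and 68853 CPM with AAV-TuD. Albumin (*Alb*) takes the largest share of these sums. Its mean was 21096 CPM with AAV-NC and 28044 CPM with AAV-TuD, which did not pass (0.41, adjusted p = 0.0805 in edgeR). The part of the Kupffer and cholangiocyte changes in the stellate values was not tested.

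**Figure D4:**
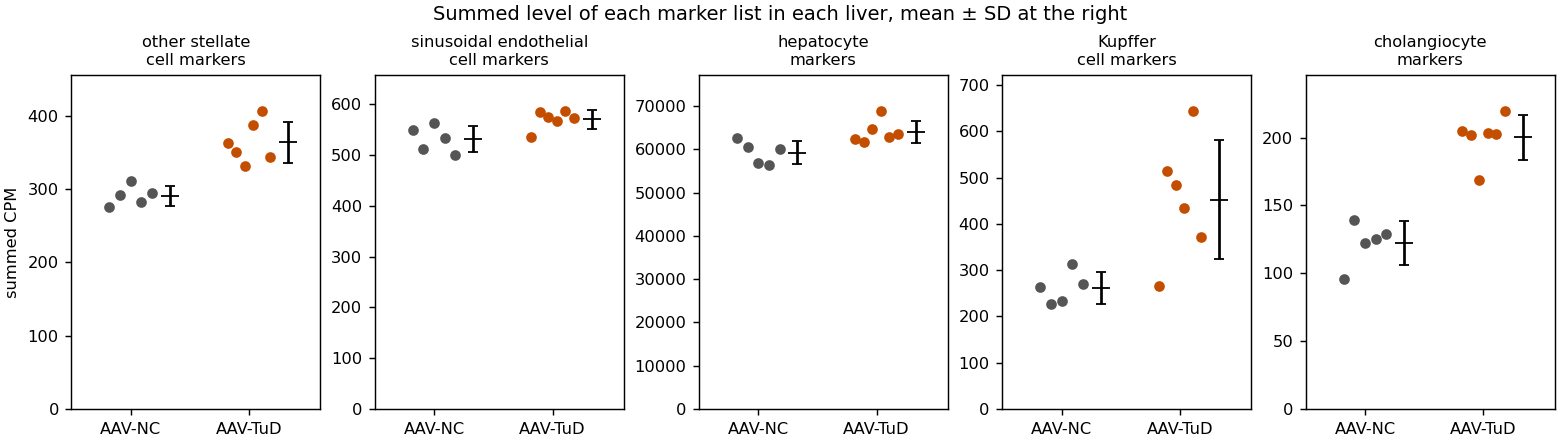
Summed CPM of the tested genes of 5 marker lists (vertical axes from 0) in each AAV-NC liver (grey) and AAV-TuD liver (orange), with the mean ± SD at the right. All 6 AAV-TuD livers are above the controls for the other stellate cell and cholangiocyte markers, and 5 of 6 for the endothelial and Kupffer cell markers.

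Relative to the summed endothelial markers, the other lining of the sinusoid, all 10 genes were higher with AAV-TuD, by between 0.32 (*Ecm1*) and 1.49 (*Pdgfc*) on the log2 scale. In 7 of them every AAV-TuD liver remained above every control. The exceptions were *Hgf* (2 of 6 livers above all controls), *Ecm1* (3 of 6) and *Pdgfrb* (4 of 6). The endothelial sum itself differed little between the groups (ratio of means 1.07), so that dividing by it could change the values only little. The ratio of means was 1.73 for the Kupffer cell sum and 1.63 for the cholangiocyte sum. The 10 genes were not set against those sums.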

How the data were processed

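RNA of 11 livers (5 AAV-NC, 6 AAV-TuD, grouped by their labels) was examined. From 500 ng RNA each, the authors made QuantSeq 3′ libraries, whose reads come from the end of a transcript. Reads were trimmed (BBDuk), aligned to GRCm38 (STAR 2.5.3a) and counted per gene (Rsubread). The deposited values are raw counts of reads for 13669 genes, each of which reached 10 reads in 5 or more livers. The annotation, strand setting and handling of multi-mapped reads are not given in the sources used here, and without strand, reads of a gene and an antisense partner cannot be told apart. The p values measure the spread between these liver samples. No other columns of samples were present (0).

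Genes over 10 reads in 5 or more livers (13334) were tested with edgeR 4.0.16 in R 4.3.3 (quasi-likelihood, TMM, Benjamini-Hochberg over all genes tested, threshold 0.05). Ratios used log2 counts with a pseudocount of 0.5 and an exact permutation test. In simulated counts for this comparison the test recovered 85% of 200 genes changed by a fold of 2 among 13334, and 6.59% of its calls were false. Totals of 8148531 to 12043959 reads leave genes near 1 CPM with about 10 reads and a large counting error. Alternatives were DESeq2 1.42.0, its size factors, library size alone, upper-quartile factors, filterByExpr, no filter, limma-voom (limma 3.58.1) with quality weights, a pseudocount of 2 for the ratios, and each liver left out. Leaving out the 3 livers with high *Mup* shares was added after the data had been seen.

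The genes and lists were chosen with earlier results of these data known. Lists were written from general knowledge, overlap in part, and are given by counts and medians only. From each list the up to 4 called genes with the smallest p values were named. *Pdgfd*, *Pdgfb*, *Sos1*, *Grb2*, *Plcg1*, *Pik3ca*, *Spry1*, *Myc*, *Met*, *Vldlr*, *Rara*, *Dgat1*, *Colec10*, *Cxcl12*, *Des*, *Rgs5*, *Postn*, *Fn1*, *Krt19*, *Cd68* and *Alb* were named after their values were seen. A few called genes are counted in their lists but not reported here by name. Gene positions and 3′ UTRs are from GENCODE M21, which held all 13334 tested genes.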

Additional observations from a re-analysis of the deposited data

Results flagged for a closer look

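In 26 groups of values (each of the 10 genes and 3 ratios in both treatments) the gap of the highest or lowest liver to its neighbour was divided by the range of the group, and 2 were above Dixon’s 95% critical value, where chance gives about 1.3. The CPM of *Lrat* in AAV-TuD 9 (30.6) was 0.666 of the range above the next liver of its group, and without this liver the log2 fold change fell from 0.96 to 0.83 and kept its call (adjusted p = 0.00186 in edgeR). The *Pdgfc* to *Pdgfra* ratio of AAV-NC 7 (-0.25 on the log2 scale) was 0.717 of the range above the other controls. Without it the difference between the groups was 0.38 instead of 0.24 (two-sided exact permutation test, p = 0.295), and it still did not pass.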

How the results depend on the processing

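No paired analysis was possible because the groups share no replicate number. All 10 genes were higher in every setting in which they were tested, and 176 of 189 alternative values stayed on their side of the threshold. The other 13 were of *Hgf* and *Ecm1*. The count of genes called higher was between 8 and 10 with 1 liver left out. *Hgf* was between 0.59 and 0.91 in these fits. *Ecm1* was between 0.36 and 0.55, and was called at 0.42 with DESeq2, 0.43 with limma-voom, 0.66 with library size alone and 0.46 without the livers of high *Mup* share. With library size alone all 10 genes were between 0.66 and 1.95, beside the shift of all genes by 0.23, and 71 instead of 577 of all genes were called lower (337 to 714 with 1 liver left out, lowest without AAV-TuD 4). Of the list genes, 8 were called lower, against 16 with DESeq2, 13 with limma-voom, 1 with library size alone and 5 to 12 with 1 liver left out. The endothelial list was called higher in 0 to 3 genes over the settings. The *Pdgfra* to *Pdgfrb* difference was between -0.028 and 0.37, and its sign turned without AAV-NC 6 (-0.028). The causes were not tested, and the fits with livers left out also hold fewer livers. Genes of few reads (*Pdgfc*, *Pdgfrb*, *Pdgfra*) carry the widest intervals.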
